A study of Mus musculus with 37 samples.

Results

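The genes described here are 10 targets of the transcription factor p53 that act in programmed cell death, namely Bax, Bbc3, Pmaip1, Fas, Tnfrsf10b, Eda2r, Pidd1, Perp, Phlda3 and Aen. They were taken by gene symbol, and all 10 were found among the 31533 genes of the series. The series holds 3 RNA sequencing experiments on organoids of the mouse jejunum, which are cultures of intestinal epithelium grown from crypts of adult mice (female and male, 6 to 12 weeks old). In the irradiation experiment, organoids of 4 mice carrying Lgr5-EGFP-IRES-CreERT2 received 6 Gy of X-rays or none, and then 100 nM vasoactive intestinal peptide (VIP) or no VIP for 48 h, before Lgr5-EGFP+ cells were sorted (4 groups of 4 samples). In the other experiments VIP was given at 100 nM for 72 h without irradiation, to whole organoids of C57Bl/6 mice (3 untreated and 4 VIP-treated cultures) and to organoids of the Lgr5-EGFP line from which Lgr5-EGFP+ cells were sorted (4 untreated and 4 VIP-treated samples). The EGFP reporter is driven by the Lgr5 locus, so the sort aims at cells in which that locus is active, which the study calls progenitor cells. Every culture of the sorted experiments carried the reporter allele, the untreated ones included, and the cultures hold epithelium without nerves, vessels or immune cells.

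After DNA damage, p53 is stabilised and raises the transcription of genes that arrest the cell cycle, repair DNA or start apoptosis. The apoptosis genes work at separate steps: proteins of the BCL2 family open the outer membrane of the mitochondrion, death receptors on the cell surface recruit initiator caspases, and further targets activate caspase-2, dampen survival kinases or degrade nucleic acids. Crypt stem cells of the small intestine are known for their sensitivity to ionising radiation, and Bbc3, which encodes PUMA, is known as a mediator of their p53-dependent death.

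Because the members are grouped by their regulator, the sequence upstream of their start sites was searched for the p53 binding element, a pair of half-site decamers, on the GRCm38.p6 promoters of RefSeq. The window was the 250 bases before each annotated start, and a match was a pair of half-sites separated by at most 3 bases with at most 3 mismatches in 20 and with the fixed C and G of each decamer intact. The consensus is its own reverse complement, so 1 pass covers both strands. Windows of 7 of the 10 members were searched (10 windows). No window of Perp, Tnfrsf10b or Pmaip1 was among them, so whether these genes have a match was not tested. A match was found in 4 of these 10 windows and in 4.71% of all 32851 windows, and by gene for 3 of the 7 members, Bax, Bbc3 and Aen, and for 5.38% of all 27025 genes with a window. An exact half-site was found in 2 of the 10 windows and in 7.13% of all windows. Windows of a gene can overlap. The windows with a match outside exons are printed below, 5′ to 3′ on the strand of the gene, with the match in capitals, and Phlda3 is shown beside them as the window without a match whose gene had the smallest adjusted p after irradiation.
Bax, chr7:45466899-45467148, minus strand: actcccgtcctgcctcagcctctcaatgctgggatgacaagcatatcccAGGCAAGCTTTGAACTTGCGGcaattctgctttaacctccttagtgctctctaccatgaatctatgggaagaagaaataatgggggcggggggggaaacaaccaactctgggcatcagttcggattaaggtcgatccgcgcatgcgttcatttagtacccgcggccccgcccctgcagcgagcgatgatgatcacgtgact
Bbc3, first start, chr7:16309333-16309582, plus strand: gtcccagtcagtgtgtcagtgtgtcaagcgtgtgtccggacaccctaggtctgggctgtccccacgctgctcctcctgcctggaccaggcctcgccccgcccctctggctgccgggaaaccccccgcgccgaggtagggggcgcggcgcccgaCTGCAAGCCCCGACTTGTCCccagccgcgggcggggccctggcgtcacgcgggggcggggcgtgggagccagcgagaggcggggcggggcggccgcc
Bbc3, second start, chr7:16310011-16310260, plus strand: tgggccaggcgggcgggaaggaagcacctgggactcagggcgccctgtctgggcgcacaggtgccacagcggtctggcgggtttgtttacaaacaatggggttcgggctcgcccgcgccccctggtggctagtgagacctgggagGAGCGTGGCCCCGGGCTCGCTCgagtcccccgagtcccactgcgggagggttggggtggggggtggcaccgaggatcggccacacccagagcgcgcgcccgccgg
Phlda3, chr1:135765835-135766084, plus strand: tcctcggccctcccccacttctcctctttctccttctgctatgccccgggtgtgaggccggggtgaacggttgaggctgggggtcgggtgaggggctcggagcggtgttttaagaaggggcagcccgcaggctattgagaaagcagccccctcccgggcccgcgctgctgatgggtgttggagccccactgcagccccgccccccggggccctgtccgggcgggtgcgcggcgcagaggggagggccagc
The Bax match began 201 bases before the start, had 2 mismatches and a spacer of 1 base, and contained an exact half-site. The matches of Bbc3 had 3 mismatches each, with spacers of 0 and 2 bases, and began 97 and 105 bases before their starts. The Aen match, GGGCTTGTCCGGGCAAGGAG at chr7:78895937-78895956 on the plus strand, also had 3 mismatches and lay in an exon of Aen that begins upstream of the second RefSeq start. No match was found in the windows of Phlda3, Fas, Pidd1 and Eda2r, which says only that these letters are not in these windows.

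Depth and composition bear on the low members. The authors counted unique molecular identifiers (UMIs), which tag each captured 3′ end of a transcript, and the totals were 1075715 to 1876729 UMIs per sample in the irradiation experiment, 3722716 to 6330404 in whole organoids and 575242 to 1104126 in the sorted cells at 72 h. Values are given as CPM, the UMI count scaled to a common library total after TMM normalisation. Intervals are 95% confidence intervals of the log2 fold change. They and the standard errors (SE) were derived from the fold change and F statistic of edgeR's quasi-likelihood fit, with the mouse as a block. In the irradiation experiment the lowest depths were those of mice 3 and 4 in the untreated irradiated group, 1075715 and 1122220 UMIs. The median of that group was 1411215.5 UMIs, against 1777684 in the VIP-treated irradiated group. No sample stood apart in the share of mitochondrially encoded transcripts (4.90% to 6.78%). Mesenchymal markers were at or near 0 (0 to 2.57 CPM summed over 5 genes in the irradiation experiment), and all 7 stem cell markers were detected in every sorted group, with Lgr5 itself at 12.4 to 38.5 CPM in the irradiation experiment. Markers of goblet, Paneth and enterocyte cells were also present in the sorted samples, and their levels are given beside the results. In untreated non-irradiated sorted samples of the irradiation experiment, Paneth markers summed to 8692 to 12197 CPM and goblet markers to 5345 to 8227 CPM. Stem markers summed to 3391 to 4488 CPM there. In untreated whole organoids, normalised separately, the sums were 9838 to 18694, 5324 to 7186 and 2443 to 4659 CPM. The ranges of each list overlapped, so the summed stem markers were not clearly higher in the sorted samples. Enterocyte markers were lower in these sorted samples, at 1063 to 1515 against 13747 to 15812 CPM. In bulk samples, fewer cells of a type and less RNA per cell cannot be told apart.

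Irradiation raised Bax, Bbc3, Eda2r, Perp and Phlda3 in Lgr5-EGFP+ cells with and without VIP, while Pmaip1, Tnfrsf10b, Pidd1 and Aen passed in neither comparison. Without VIP, 5 of the 10 members rose past an adjusted p of 0.05 (Bax, Bbc3, Eda2r, Perp and Phlda3) and 0 fell, where 2.87% of the 9976 genes tested rose. With VIP, the same 5 genes and Fas rose, 6 of 10, where 4.32% of the genes tested rose. All 10 members had enough counts to be tested, and all 10 had a log2 fold change above 0 in both comparisons, with a median of 0.75 without VIP and 0.85 with VIP beside a median of 0.00 over all genes tested. For 9 of the 10 members every irradiated sample without VIP lay above every non-irradiated sample without VIP, a separation seen in that direction for 4.62% of genes. With VIP this held for 6 members, against 6.26% of genes.

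**Figure D1:**
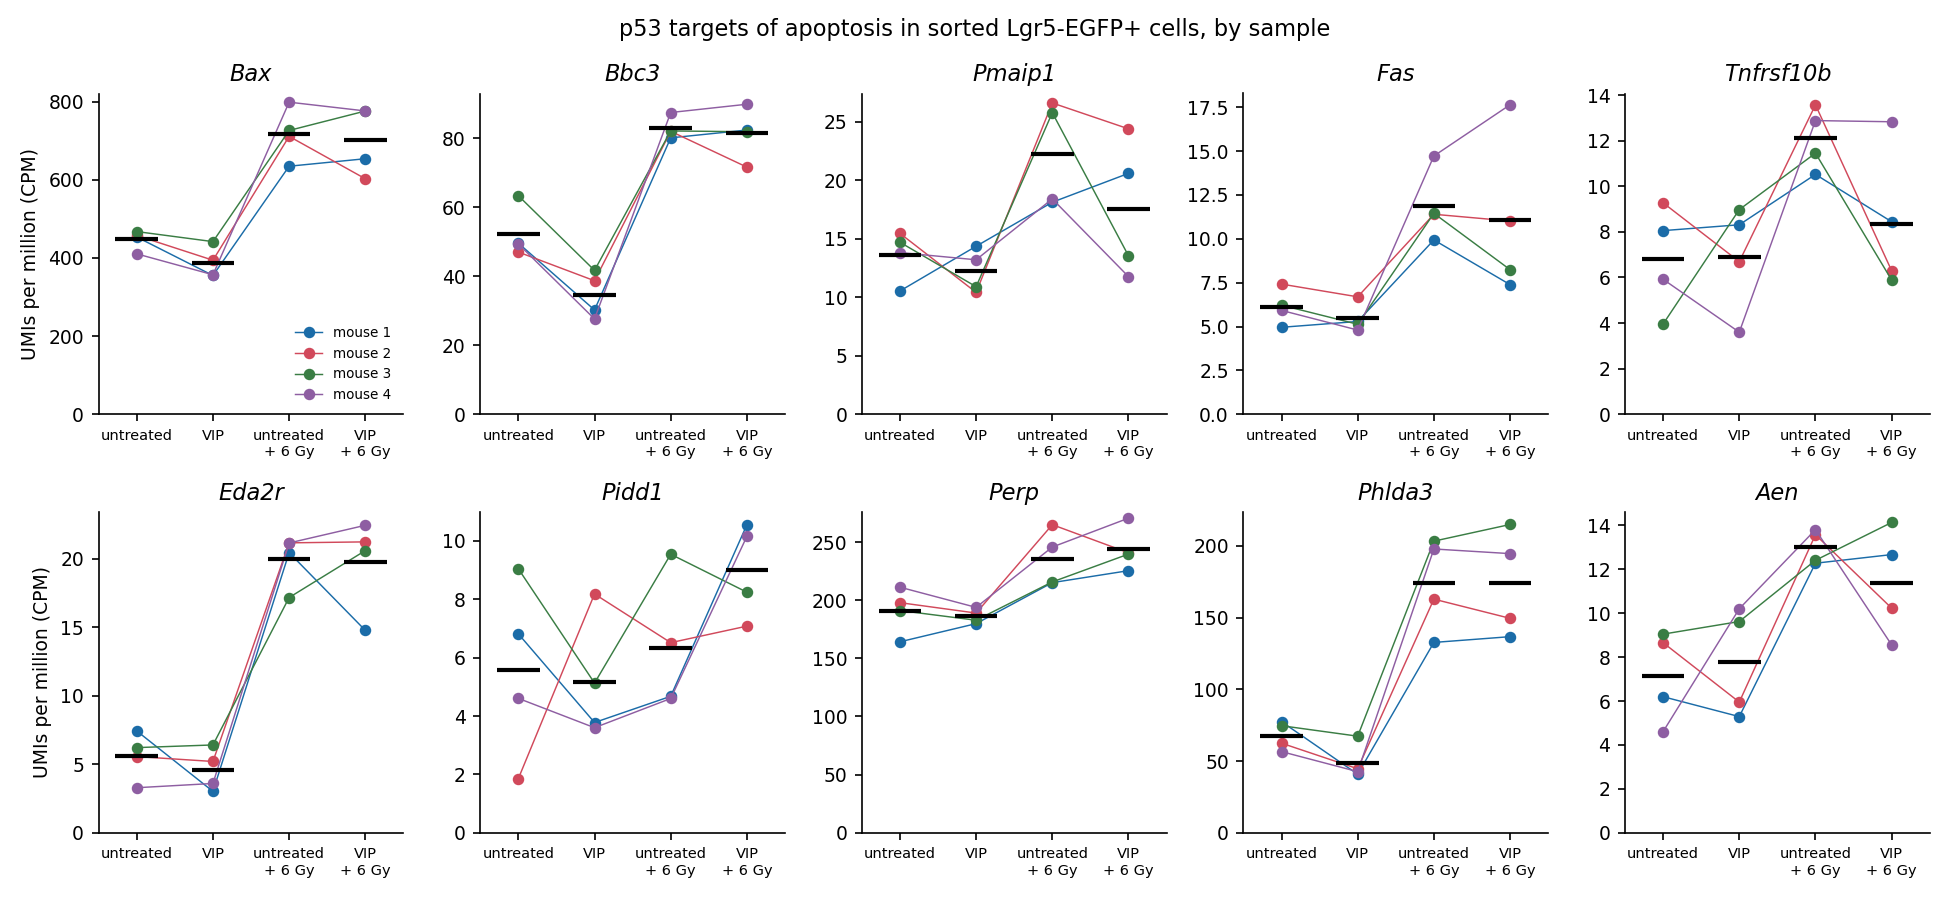
Expression of the 10 members in the 16 samples of sorted Lgr5-EGFP+ cells, in CPM on a linear axis from 0. Points are samples, coloured lines join the samples of a mouse and black bars are the means of 4 samples. For Bax, Bbc3, Eda2r, Perp and Phlda3 all 8 irradiated samples lie above all 8 non-irradiated samples.

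Among the mitochondrial members, Bax and Bbc3 rose together. Bax encodes the effector that forms pores in the outer mitochondrial membrane. It had 411, 454, 458 and 468 CPM in the untreated non-irradiated samples and 635, 711, 726 and 799 CPM in the untreated irradiated samples. In the VIP-treated samples Bax was 355, 357, 394 and 442 CPM without irradiation and 603, 654, 776 and 776 CPM with it. Neither pair of groups overlapped. On irradiation Bax rose by 0.68 on the log2 scale without VIP (SE 0.08, adjusted p = 9.86e-06) and by 0.86 with VIP (SE 0.08, adjusted p = 1.01e-07), in 4 of 4 mice each time. In GENCODE M21 the exons of Bax overlap those of Gm45808 on the same strand, and how reads in the shared stretch were counted was not examined.

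Bbc3 encodes PUMA, a BH3-only protein that binds the BCL2 family guardians and releases the effectors. In the untreated samples it rose from 47.0, 49.3, 49.6 and 63.3 CPM without irradiation to 80.1, 82.0, 82.1 and 87.4 CPM after 6 Gy. In the VIP-treated samples it rose from 27.6, 30.2, 38.7 and 41.7 CPM to 71.6, 81.8, 82.3 and 89.8 CPM. The irradiated samples thus reached the same range with and without VIP, from a lower level with VIP. On the log2 scale Bbc3 rose by 0.67 without VIP (SE 0.12, adjusted p = 1.13e-03) and by 1.25 with VIP (SE 0.13, adjusted p = 3.15e-07). The match of the p53 element printed above for Bax lies before the gene. Both matches for Bbc3 lie before RefSeq starts but within the GENCODE span of the gene (chr7:16308393-16318205). Both genes rose in both comparisons, and a link to the matches was not tested.

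Pmaip1 encodes NOXA, a BH3-only protein that acts mainly on the guardian MCL1. It was counted with 14 to 49 UMIs per sample, against 470 to 1452 for Bax. Its values were 10.5, 13.8, 14.7 and 15.5 CPM without irradiation and 18.1, 18.4, 25.8 and 26.6 CPM with it in untreated cells, and these groups did not overlap. With VIP the groups did overlap, at 10.4 to 14.4 CPM without irradiation and 11.8 to 24.4 CPM with it. The log2 fold change of Pmaip1 was 0.68 (interval 0.21 to 1.16, adjusted p = 0.0971) without VIP and 0.49 (interval −0.01 to 0.98, adjusted p = 0.244) with VIP, so neither comparison passed the threshold.

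Of the receptors, Eda2r had the largest fold change of the 10 members in both comparisons. It encodes a receptor of the tumour necrosis factor receptor family for ectodysplasin A2. Eda2r was at 3.29, 5.57, 6.22 and 7.44 CPM in untreated non-irradiated cells and at 17.2, 20.5, 21.2 and 21.2 CPM in untreated irradiated cells. In VIP-treated cells it was at 3.02, 3.60, 5.21 and 6.41 CPM without irradiation and 14.8, 20.6, 21.2 and 22.5 CPM with it. The ranges were far apart, although the counts were small, 4 to 12 UMIs per non-irradiated sample and 18 to 42 per irradiated sample. Irradiation raised Eda2r 3.53-fold without VIP (log2 1.82, SE 0.27, adjusted p = 9.76e-05) and 4.26-fold with VIP (log2 2.09, SE 0.28, adjusted p = 1.50e-05).

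Fas, the receptor for Fas ligand, recruits caspase-8 through the adaptor FADD. It had 4.96, 5.92, 6.22 and 7.42 CPM in untreated non-irradiated cells and 9.94, 11.4, 11.5 and 14.7 CPM in untreated irradiated cells. In VIP-treated cells Fas was at 4.80, 5.13, 5.29 and 6.69 CPM without irradiation and 7.39, 8.24, 11.0 and 17.6 CPM with it, and the 17.6 CPM of mouse 4 was the highest value of all 16 samples. The groups did not overlap in either comparison. Its log2 fold change was 0.93 (interval 0.34 to 1.51, adjusted p = 0.0650) without VIP and 1.02 (interval 0.41 to 1.62, adjusted p = 0.0309) with VIP. The call of Fas with VIP was kept in 5 of 11 alternatives and lost in 6. It was lost in DESeq2's Wald test with and without independent filtering (adjusted p = 0.186 in each), with only the 2 groups compared (adjusted p = 0.0501), and without mouse 2, 3 or 4 (adjusted p = 0.0742, 0.0699 and 0.369), with a log2 fold change of 0.63 without mouse 4.

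Tnfrsf10b, the mouse death receptor for TRAIL, lay between 3.96 and 9.28 CPM in untreated non-irradiated cells and between 10.5 and 13.6 CPM in untreated irradiated cells, without overlap. With VIP the ranges were 3.60 to 8.98 CPM without irradiation and 5.89 to 12.8 CPM with it, so that they overlapped. The log2 fold change of Tnfrsf10b was 0.82 (interval 0.16 to 1.49, adjusted p = 0.172) and 0.32 (interval −0.38 to 1.02, adjusted p = 0.651), and neither passed.

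Pidd1 encodes the scaffold on which caspase-2 is activated, and without VIP it was the member with the smallest fold change. Its range was 1.86 to 9.05 CPM in untreated non-irradiated cells and 4.60 to 9.54 CPM in untreated irradiated cells, with a log2 fold change of 0.16 (interval −0.65 to 0.97, adjusted p = 0.895). With VIP the ranges were 3.60 to 8.18 CPM and 7.08 to 10.6 CPM, with a log2 fold change of 0.84 (interval 0.08 to 1.60, adjusted p = 0.182). Pidd1 had 3 to 20 UMIs per sample, and its interval is wide enough to hold the fold change of Bax in both comparisons.

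The other members are Phlda3, Perp and Aen. Phlda3 encodes a pleckstrin homology domain protein that competes with the survival kinase AKT for membrane lipids. It rose from 56.6, 62.5, 74.6 and 77.5 CPM to 133, 163, 198 and 203 CPM in untreated cells, and from 40.8, 42.6, 44.6 and 67.3 CPM to 137, 149, 195 and 215 CPM in VIP-treated cells. The lowest irradiated sample was above the highest non-irradiated sample in each comparison, and mice 3 and 4 had the higher values after irradiation with and without VIP. Irradiation raised Phlda3 2.54-fold without VIP (log2 1.34, SE 0.12, adjusted p = 1.51e-07) and 3.56-fold with VIP (log2 1.83, SE 0.13, adjusted p = 8.50e-10).

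Perp encodes a membrane protein of desmosomes that is also a p53 target in apoptosis. It was at 164, 191, 198 and 211 CPM in untreated non-irradiated cells and at 215, 216, 246 and 265 CPM in untreated irradiated cells, a small separation. With VIP it was at 180, 183, 189 and 194 CPM without irradiation and 225, 240, 241 and 271 CPM with it. The rise of Perp was the smallest among the members that passed, at 0.31 on the log2 scale without VIP (SE 0.07, adjusted p = 0.0113) and 0.39 with VIP (SE 0.07, adjusted p = 7.98e-04). Without VIP the call of Perp was kept in 8 of 12 alternatives and lost in 4, with an adjusted p of 0.102 without mouse 2, 0.0568 without mouse 4, 0.0509 without the mouse as a block and 0.0834 when all genes with a count were tested.

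Aen, a p53-induced nuclease that degrades DNA and RNA in dying cells, was at 4.61 to 9.05 CPM in untreated non-irradiated cells and at 12.3 to 13.8 CPM in untreated irradiated cells. With VIP it ranged from 5.29 to 10.2 CPM without irradiation and from 8.55 to 14.1 CPM with it. Its log2 fold change was 0.87 (interval 0.30 to 1.45, adjusted p = 0.0764) and 0.53 (interval −0.04 to 1.10, adjusted p = 0.279). Of the 7 members whose upstream window was used, Bax, Bbc3 and Aen had a match of the p53 element. Bax and Bbc3 passed in both comparisons and Aen in neither. Without a match, Phlda3 and Eda2r passed in both with the largest fold changes, Fas passed with VIP alone and Pidd1 in neither. A link between match and fold change was not tested.

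Markers of other cell types moved with irradiation in the same samples. The summed level of the 5 Paneth markers was 8692 to 12197 CPM in untreated non-irradiated and 11910 to 22255 CPM in untreated irradiated samples, and all 5 rose past the threshold with and without VIP. Goblet markers summed to 5345 to 8227 and 7111 to 10131 CPM in these groups (5 of 7 rose without VIP and 3 of 7 with it), and enteroendocrine markers to 1053 to 1430 and 1587 to 3630 CPM (3 of 4 and 4 of 4 rose). Enterocyte markers summed to 1063 to 1515 CPM without and 1392 to 2851 CPM with irradiation in untreated cells, where 2 of 6 rose (median log2 fold change 0.97), and to 860.5 to 1136 and 1134 to 1416 CPM with VIP. Stem cell markers summed to 3391 to 4488 CPM without and 2496 to 2891 CPM with irradiation in untreated cells. Of the 7, Olfm4 and Smoc2 fell and 0 rose (list median log2 fold change −0.26). Olfm4 alone was at 2438 to 3467 CPM without and 1643 to 2046 CPM with irradiation, so it weighs heavily in the sum. Lgr5 was at 12.4 to 27.9 and 17.5 to 25.5 CPM. With VIP the stem markers summed to 5256 to 5777 and 3086 to 3715 CPM, and 2 of the 7 fell. The Paneth markers with VIP summed to 7386 to 8270 and 11924 to 13679 CPM. The marker Cd74 rose 2.09 on the log2 scale without VIP, while Ptprc, which marks all leukocytes, had at most 4 UMIs in any sample of the experiment. The part of these shifts in the changes of the p53 targets was not tested.

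**Figure D2:**
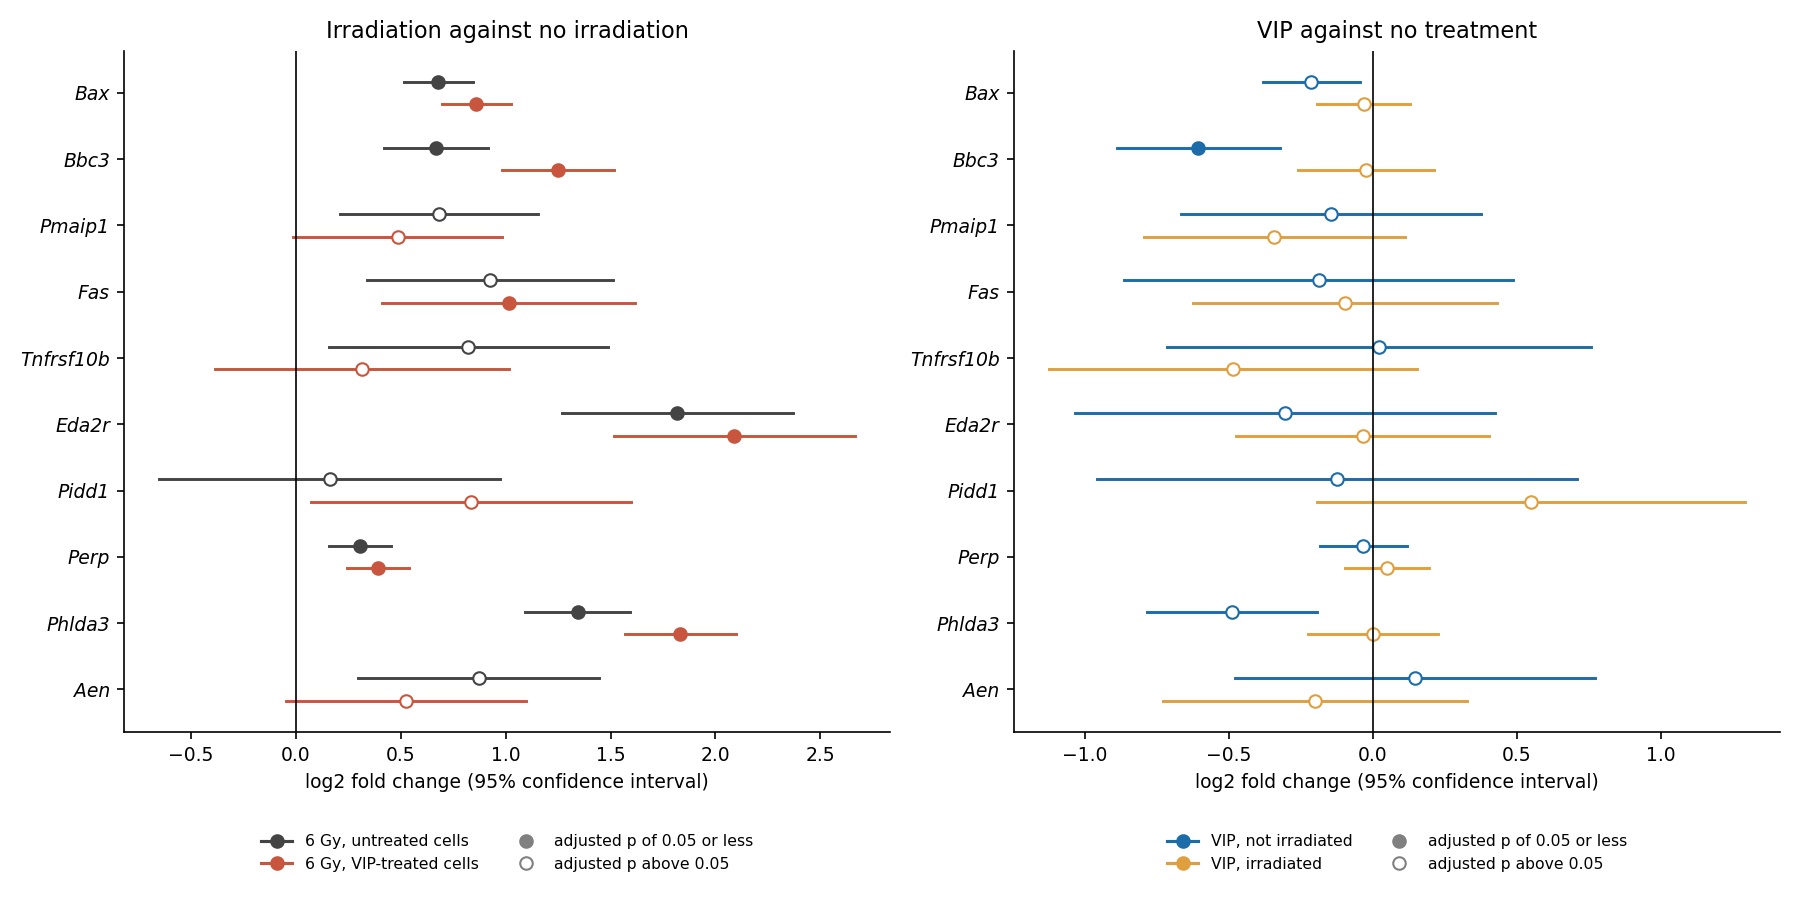
Log2 fold changes of the 10 members in sorted Lgr5-EGFP+ cells, for irradiation (left) and VIP (right), with 95% confidence intervals derived from edgeR's F statistic. Filled points have an adjusted p of 0.05 or less and open points do not. On the left all points lie to the right of 0, and on the right the filled point is Bbc3 in non-irradiated cells.

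The comparison of VIP with no VIP after 6 Gy asks what the peptide changes in irradiated Lgr5-EGFP+ cells, and for the 10 targets of apoptosis no difference was detected. Between VIP-treated and untreated irradiated cells, 0 of the 10 members passed the threshold in edgeR or in DESeq2, and 0 had an unadjusted p under 0.05 in edgeR. Over all genes 0.13% rose, 0.0902% fell, and 5.75% had an unadjusted p under 0.05. The median log2 fold change of the members was −0.03. The intervals were narrow for the abundant members: −0.19 to 0.13 for Bax, −0.26 to 0.21 for Bbc3, −0.10 to 0.20 for Perp and −0.23 to 0.23 for Phlda3, in log2 units. For the scarce members they reached further, −0.47 to 0.40 for Eda2r, −0.63 to 0.43 for Fas and −0.73 to 0.33 for Aen. Pmaip1 had an interval of −0.79 to 0.11 and Pidd1 one of −0.19 to 1.29. Tnfrsf10b was at 10.5, 13.6, 11.5 and 12.9 CPM untreated and at 8.45, 6.29, 5.89 and 12.8 CPM with VIP in mice 1 to 4. It was lower with VIP in 4 of 4 mice, but barely so in mouse 4 (log2 difference −0.0053). Its log2 fold change of −0.49 (interval −1.12 to 0.15) had an adjusted p of 0.961. Of the marker lists in this comparison, 1 of 7 stem genes rose (Olfm4, 0.35 on the log2 scale). In the goblet list 1 of 7 fell (Fcgbp, −1.05), and in the enterocyte list 1 of 6 (Fabp1, −1.37). An unadjusted p under 0.05 in edgeR was seen for 6 of 7 goblet, 5 of 5 Paneth, 4 of 6 enterocyte and 2 of 7 stem genes. The list medians were −0.66, −0.54, −0.95 and 0.12. The part of these lists in the values of the members was not tested.

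In the absence of irradiation, VIP lowered Bbc3. The VIP-treated samples, at 27.6 to 41.7 CPM, all lay below the untreated samples at 47.0 to 63.3 CPM, and Bbc3 was lower in 4 of 4 mice. Its log2 fold change was −0.61 (interval −0.89 to −0.32, adjusted p = 0.0321), a 0.657-fold level. Bbc3 was the 1 member of 10 to pass, where 0.261% of genes fell, and the 1 member whose groups did not overlap, where 3.09% of genes were lower in every VIP sample. The call was near the threshold and was not kept without mouse 1, 3 or 4 (adjusted p = 0.149, 0.134 and 0.179), without the mouse as a block (adjusted p = 0.0527) or in DESeq2 without independent filtering (adjusted p = 0.0943), with log2 fold changes of −0.61 to −0.53 in these 5 fits.

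Phlda3 and Bax also had an unadjusted p under 0.05 in that comparison, so that 3 of 10 did, against 12.4% of all genes. Phlda3 was lower with VIP in 4 of 4 mice, at 40.8, 42.6, 44.6 and 67.3 CPM against 56.6, 62.5, 74.6 and 77.5 CPM, and the highest VIP sample overlapped the untreated range. Its log2 fold change was −0.49 (interval −0.78 to −0.19, adjusted p = 0.101). Bax was also lower in 4 of 4 mice, with a log2 fold change of −0.21 (interval −0.38 to −0.05, adjusted p = 0.255). The other 7 members had log2 fold changes between −0.31 and 0.15, each with an interval across 0. This comparison and irradiation without VIP share the untreated non-irradiated samples, so a deviation of these 4 samples enters both. It likewise shares the VIP-treated non-irradiated samples with irradiation with VIP. The lower level of Bbc3 and Phlda3 in those samples therefore enters both comparisons too.

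The difference between the effects of VIP in irradiated and non-irradiated cells was tested as an interaction. With all genes included, 0 of 9976 passed an adjusted p of 0.05 in edgeR, and 0 in DESeq2. Bbc3 had an interaction of 0.58 on the log2 scale (interval 0.21 to 0.95, unadjusted p = 0.00334 and adjusted p = 0.676 in edgeR) and Phlda3 one of 0.49 (interval 0.12 to 0.86, unadjusted p = 0.0116 and adjusted p = 0.688), both positive in 4 of 4 mice. These were the 2 members of 10 with an unadjusted p under 0.05, against 6.36% of genes. So the fall of Bbc3 with VIP was past the threshold in non-irradiated cells and not in irradiated cells, but the difference between them did not survive adjustment over all genes. Beside these values, VIP moved the marker lists in non-irradiated cells as well. Olfm4, 0.57 higher on the log2 scale (adjusted p = 4.91e-05 in edgeR), was the 1 stem marker of 7 to pass (list median 0.15). The summed stem markers were 3391 to 4488 CPM untreated and 5256 to 5777 CPM with VIP. The summed Paneth markers were 8692 to 12197 and 7386 to 8270 CPM, and 0 of 5 passed. The part of these lists in the lower Bbc3 level was not tested.

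Whole organoids gave a further view of VIP without irradiation, after 72 h and at higher depth. All 10 members could be tested and 0 passed in edgeR or in DESeq2, where 3.72% of 12727 genes rose and 1.10% fell. An unadjusted p under 0.05 was seen for 3 members, Bbc3, Perp and Phlda3, and for 16.4% of all genes. Bbc3 was again lower in each mouse with both treatments, 17.1, 18.6 and 30.2 CPM untreated in mice 1 to 3 against 12.2, 15.4 and 18.3 CPM with VIP, and 11.6 CPM in mouse 4 with VIP. The groups overlapped, since 18.3 CPM of mouse 3 with VIP lies above 17.1 CPM of mouse 1 without it. The log2 fold change of Bbc3 was −0.50 (interval −0.84 to −0.16, adjusted p = 0.104), close in size to that in non-irradiated sorted cells, although the tables were normalised separately and the times differ.

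Perp and Phlda3 had positive values in whole organoids. Perp was at 133, 136 and 166 CPM untreated and at 159.5, 176, 201 and 168 CPM with VIP in mice 1 to 4, with a log2 fold change of 0.30 (interval 0.11 to 0.49, adjusted p = 0.0815). Phlda3 was at 14.2, 14.1 and 20.5 CPM untreated and at 19.7, 21.1, 21.3 and 21.1 CPM with VIP, with a log2 fold change of 0.37 (interval 0.03 to 0.72, adjusted p = 0.257). For both genes the untreated culture of mouse 3 was the highest of the untreated group. Without mouse 3 the 2 genes passed, with log2 fold changes of 0.31 for Perp (adjusted p = 0.0117) and 0.53 for Phlda3 (adjusted p = 0.0295). One library of the VIP-treated culture of mouse 3 also differed from its partner: the goblet cell gene Clca1 had 52.3 CPM in it and 325 CPM in the first library of that culture, where untreated libraries had 40.2 to 60.9 CPM. When this library was left out, Perp had a log2 fold change of 0.37 (adjusted p = 0.00844).

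The other 7 members in whole organoids had log2 fold changes between −0.08 (Pidd1) and 0.21 (Tnfrsf10b). Bax was at 199 to 285 CPM untreated and 216 to 274 CPM with VIP (log2 fold change 0.08, interval −0.11 to 0.27). Pmaip1 was at 26.0 to 34.8 and 26.2 to 37.9 CPM, and Fas at 6.74 to 10.8 and 6.81 to 12.1 CPM. Eda2r stood at 1.59 to 1.99 CPM untreated and 1.73 to 2.10 CPM with VIP, from 7 to 12 UMIs per culture. None of these pairs of ranges was separate. Goblet markers moved in the same cultures, 6 of 7 rising with VIP, with a summed level of 5324 to 7186 CPM untreated and 7677 to 9359 CPM with VIP. The enterocyte markers had a summed level of 13747 to 15812 CPM untreated and 11536 to 14149.5 CPM with VIP. Of these 6 markers, 1 rose and 2 fell past the threshold. The part of both lists in the values of the members was not tested.

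In sorted Lgr5-EGFP+ cells after 72 h of VIP, depth limited the test to Bax, Perp and Phlda3. Of the 3, 0 passed in edgeR or in DESeq2, and 0 had an unadjusted p under 0.05, where 0.059% of 6778 genes rose, 0.0295% fell and 5.53% had an unadjusted p under 0.05. Phlda3 was lower in 4 of 4 mice, at 10.5, 17.5, 19.8 and 24.0 CPM untreated and 7.18, 9.72, 9.80 and 17.1 CPM with VIP. These groups overlapped, and the log2 fold change of −0.75 had an interval of −1.52 to 0.03 (adjusted p = 0.884). Bax had a log2 fold change of −0.14 (interval −0.43 to 0.15) and Perp one of 0.03 (interval −0.32 to 0.38). Bbc3 was counted with 1 to 11 UMIs per untreated sample and 7 to 19 per VIP-treated sample and was not tested. Its values of 1.75 to 17.6 and 11.6 to 30.8 CPM were higher with VIP in 3 of 4 mice. That direction was not shared with the other comparisons of VIP without irradiation. Eda2r had 0 UMIs in the 4 untreated samples and at most 1 in the VIP-treated samples. Pmaip1 had 3 to 16 UMIs per sample, Aen 3 to 8, Tnfrsf10b 2 to 6, Pidd1 1 to 5 and Fas 0 to 4, too few for a comparison.

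**Figure D3:**
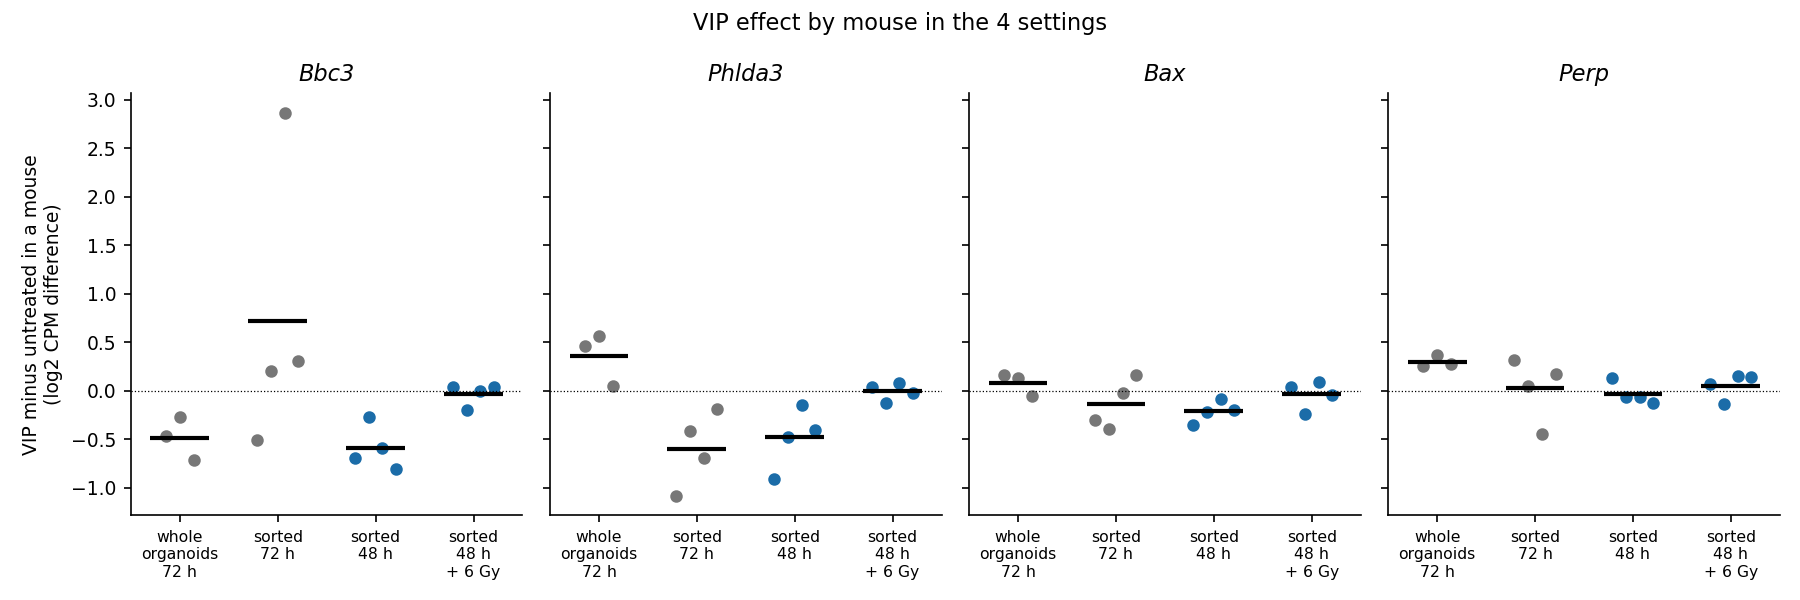
Difference between the VIP-treated and the untreated sample of each mouse, in log2 CPM with a prior count of 2, for Bbc3, Phlda3, Bax and Perp. Points are mice (3 in whole organoids and 4 elsewhere) and bars are their means. Bbc3 lies below 0 in every mouse of whole organoids and of non-irradiated sorted cells at 48 h, and the highest Bbc3 point at 72 h belongs to a mouse with 1 UMI in its untreated sample.

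The genes that act before, beside and after the 10 targets were described from lists of the pathway. Trp53 itself did not rise on irradiation: its log2 fold change was −0.26 (adjusted p = 0.138) without VIP and −0.28 (adjusted p = 0.0636) with VIP. Of the 16 genes of the p53 core, arrest and feedback list, 9 rose without VIP and 11 with VIP, and 0 fell (median log2 fold change 0.83 and 1.06). Cdkn1a, which encodes the cell cycle inhibitor p21, rose by 1.15 and 1.75 on the log2 scale (adjusted p = 6.04e-08 and 2.35e-11). Sesn2, Ccng1 and Gtse1 rose in both comparisons too, with log2 fold changes of 1.57, 1.15 and 1.14 without VIP. In non-irradiated cells Cdkn1a fell with VIP by 0.57 on the log2 scale (adjusted p = 0.00494), the 1 gene of the 16 to pass in that comparison, and in irradiated cells 0 of the 16 passed. In whole organoids 4 of the 16 rose with VIP, Sfn (0.76), Plk3 (0.78), Cdkn1a (0.58) and Plk2 (0.68). Cdkn1a thus had opposite signs in whole organoids after 72 h and in the non-irradiated sorted cells of the irradiation experiment after 48 h.

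The guardians of the BCL2 family, which hold the effectors in check, did not pass in any comparison, with 4 of the 6 listed tested in whole organoids and 3 in each other experiment. Their lowest adjusted p values after irradiation without VIP were those of Bcl2l1 (log2 fold change 0.40, adjusted p = 0.123) and Mcl1 (0.31, adjusted p = 0.184). Of the other BCL2 family effectors and BH3-only genes, 6 of 8 could be tested. Irradiation without VIP moved 0 of these past the threshold, with Bid at 0.35 (adjusted p = 0.230) and Bcl2l11 at 0.60 (adjusted p = 0.346), and irradiation with VIP moved Bok alone (log2 fold change 0.29, adjusted p = 0.0424). Bok also rose with VIP in whole organoids (0.63, adjusted p = 0.00622). The median of this list was 0.16 without VIP and 0.20 with VIP, beside 0.75 and 0.85 for the 10 p53 targets.

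Among the 14 genes of the apoptosome and caspases, Apaf1, which builds the platform for caspase-9, rose with irradiation in VIP-treated cells by 1.12 on the log2 scale (adjusted p = 0.0241), and had 0.75 (adjusted p = 0.209) without VIP. The other 13 did not pass in either irradiation comparison, and the list medians were 0.02 and 0.08. In whole organoids Casp6 fell by 0.37 on the log2 scale with VIP (adjusted p = 0.0336). Of the 5 caspase inhibitors and death receptor brakes 0 passed in any comparison, with Cflar, which blocks caspase-8 at the receptors, at 0.65 (adjusted p = 0.172) after irradiation without VIP. Of 9 death receptor ligands and further receptors, 4 could be tested in the irradiation experiment and 0 passed, the first by p being Ripk1 at 0.30 (adjusted p = 0.604). In whole organoids 6 were tested and 0 passed, with Tnfrsf21 at 0.77 (adjusted p = 0.0515).

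A further list held the desmosome partners of Perp. Without VIP, 0 of 6 passed, with Dsg2 at 0.55 (adjusted p = 0.0800), and with VIP Dsp (0.97, adjusted p = 5.82e-04) and Dsg2 (0.64, adjusted p = 0.0220) rose with irradiation. The list median was 0.31 in both comparisons, as large as the log2 fold change of Perp without VIP. Of the 6 p53 targets in DNA repair, 5 were tested, 0 passed without VIP, where Ddb2 had −0.66 (adjusted p = 0.0904), and Polk alone rose with VIP (1.59, adjusted p = 9.63e-04). The proliferation genes had 0 of 7 past the threshold in every comparison.

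**Figure D4:**
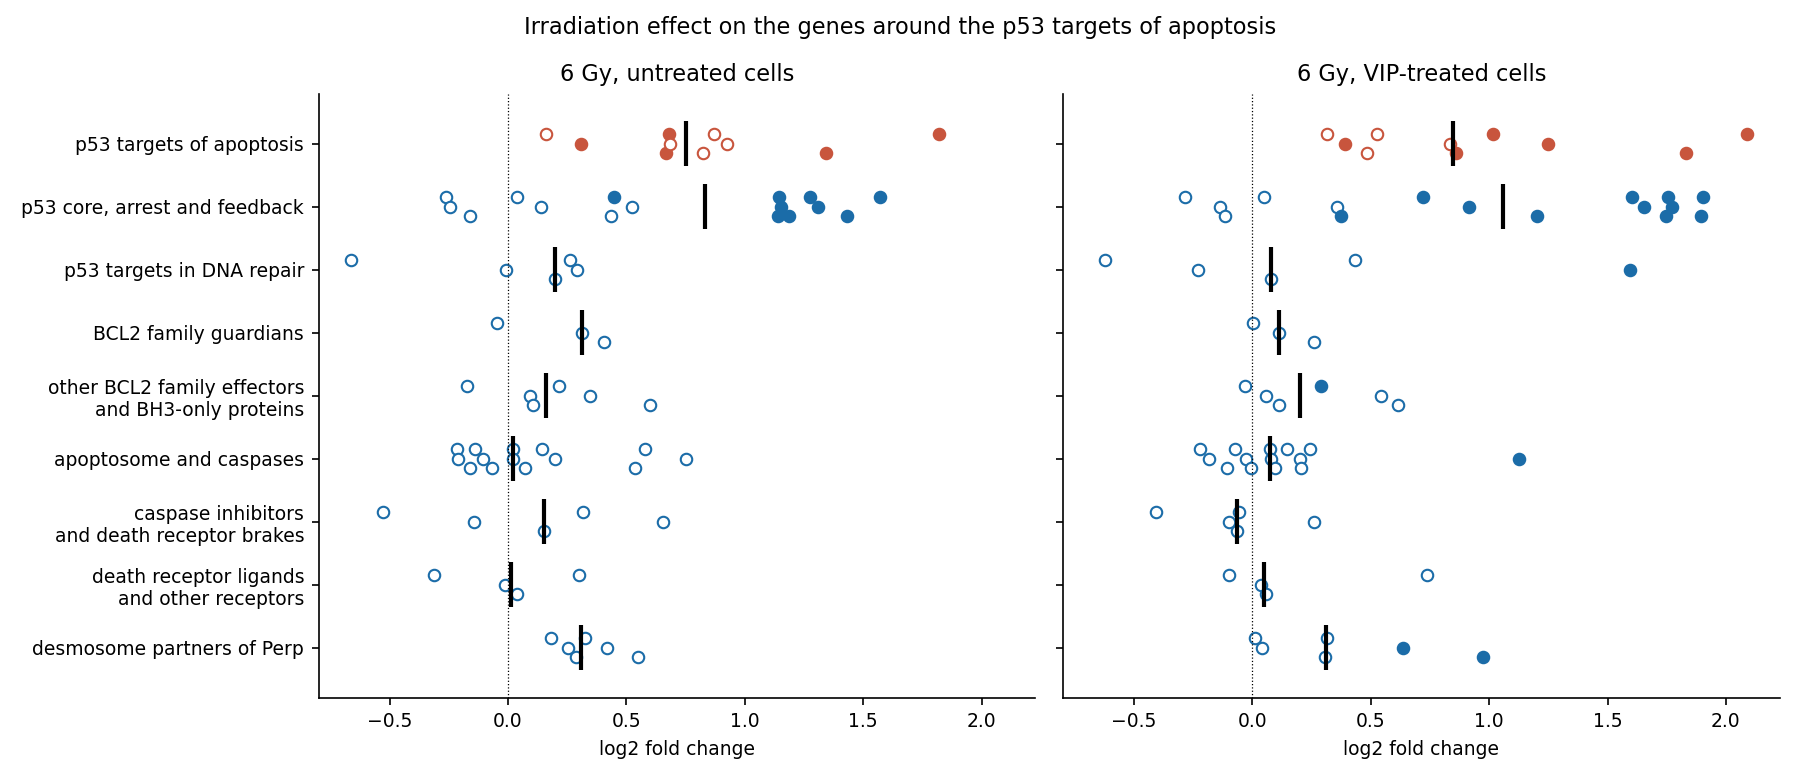
Log2 fold change on irradiation of each tested gene of 9 lists, in untreated (left) and VIP-treated (right) Lgr5-EGFP+ cells. Each point is a gene, filled where the adjusted p from edgeR is 0.05 or less, and vertical bars are list medians. The 10 targets of apoptosis have medians of 0.75 and 0.85, below the p53 core list (0.83 and 1.06) and above the 7 other lists.

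The members differed in how closely they followed each other. Over the 16 samples of the irradiation experiment, with log2 CPM centred within each mouse, the Pearson correlation of a member with the mean of the other 9 scaled members was 0.98 for Bax, 0.97 for Phlda3, 0.96 for Eda2r, 0.93 for Bbc3, 0.92 for Fas and 0.91 for Perp. It was 0.71 for Aen, 0.62 for Pmaip1, 0.59 for Tnfrsf10b and 0.42 for Pidd1. These 4 members had 3 to 49 UMIs per sample, Eda2r had 4 to 42 and Fas 7 to 33, and the part of depth in the correlations was not tested. The samples share mice and the irradiation, so the correlations are a description. The 10 other genes most like the mean of the members on the same measure were Cdc34, Gtse1, Ephx1, Cdkn1a, Crip2, Gprc5a, Pmm1, Sesn2, Dglucy and Cldn4, with correlations of 0.96 to 0.99. Because they were picked for following the members in these same samples, their changes with irradiation were largely set by that choice and are given as a description, from 0.31 for Cdc34 to 1.57 for Sesn2 on the log2 scale without VIP.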

How the data were processed

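RNA of whole organoids and sorted Lgr5-EGFP+ cells was sequenced from the 3′ end. The authors ran the Drop-seq pipeline on GRCm38 with GENCODE M25 and deposited UMI counts that are not normalised, 1 column of whole numbers for each library. All 37 columns could be assigned to a sample (0 without one), and the 13 libraries of whole organoids were summed per culture. Positions and exons were read from GENCODE M21 (GRCm38), which holds 96.8% of the symbols in the tables, and promoters are RefSeq's on GRCm38.p6.

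Differences were tested with edgeR 4.0.16 under R 4.3.3 (filterByExpr by group, TMM, quasi-likelihood F test, mouse as a block as in the study's design), with Benjamini-Hochberg adjustment over all genes tested and a threshold of 0.05. The 4 groups of the irradiation experiment were fitted together. Mice pair the samples by the identifiers of the labels: deviations from the group mean correlated at −0.07 to 0.16 within mice and −0.20 to 0.20 between mice in the irradiation experiment, 0.03 to 0.21 and −0.14 to 0.15 at 72 h, and 0.27 to 0.63 and −0.54 to 0.33 in whole organoids. The scripts were tested on simulated data.

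Alternatives were DESeq2 1.42.0, RLE factors, library size alone, other count filters, no block, the compared groups alone, each mouse left out, and, in whole organoids, the first library or all but 1 library. DESeq2 without independent filtering was added after the data were examined. The members and gene lists were chosen with earlier results of these data known. All 10 members were named, and of other lists the members past the threshold (at most 4 per direction) or else at most 2 with the smallest p. The result of 1 marker gene is not reported here.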

Additional observations from a re-analysis of the deposited data

Results flagged for a closer look

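Among 70 groups of 4 samples examined, 6 held a sample set apart from the others by Dixon's test at the 95% level, where chance sets apart about 1 group in 20. In the irradiation experiment these were the untreated non-irradiated sample of mouse 3 for Bbc3 (63.3 CPM, the others 47.0 to 49.6) and the VIP-treated non-irradiated sample of mouse 3 for Phlda3 (67.3 CPM, the others 40.8 to 44.6). In whole organoids with VIP they were the highest sample for Bax (274 CPM, mouse 3, the others 216 to 225) and the lowest for Phlda3 (19.7 CPM, mouse 1, the others 21.1 to 21.3). In sorted cells at 72 h they were Tnfrsf10b in an untreated sample (6.40 CPM, from 4 UMIs, the others at most 3 UMIs) and Pidd1 in a VIP-treated sample (1.80 CPM, from 1 UMI, the others 4.46 to 4.86).

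For 2 genes, every mouse moved one way with VIP in one experiment and the opposite way in another, a difference that was not tested, since the tables were normalised separately and durations differ. Phlda3 was higher with VIP in each of 3 mice in whole organoids (log2 fold change 0.37) and lower in each of 4 mice in non-irradiated sorted cells at 48 h (−0.49) and at 72 h (−0.75). Tnfrsf10b was higher in each of 3 mice in whole organoids (0.21) and lower in each of 4 mice in irradiated sorted cells (−0.49), though barely so in mouse 4. None of these 5 values was past the threshold.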

How the results depend on the processing

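The counts of members past the threshold stayed at 4 or 5 for irradiation without VIP and at 4 to 6 with VIP under every alternative run, and at 0 for VIP in irradiated cells, for the interaction and for VIP at 72 h in sorted cells. The number of members tested was not the same throughout. With at least 10 counts required in every sample, Fas, Tnfrsf10b, Eda2r, Pidd1 and Aen were not tested in the irradiation experiment. For VIP in non-irradiated sorted cells the count of 1 (Bbc3) became 0 in DESeq2 with and without independent filtering (DESeq2 gave Bbc3 no adjusted p with it), 0 with no replicate block, 2 (Bbc3 and Phlda3) when all genes with a count were tested, and 0 to 1 when 1 mouse was left out, being 0 without mouse 1, 3 or 4. For VIP in whole organoids the count of 0 became 1 (Perp) with the first technical library alone or without the second library of VIP-treated mouse 3, and 0 to 2 when 1 mouse was left out, with 2 (Perp and Phlda3) without mouse 3. The block of the mouse changed no other call but that of Perp after irradiation without VIP. Signs turned only for values that did not pass. Phlda3 with VIP in irradiated cells (0.0005) was −0.0037 in DESeq2 with and without independent filtering, −0.00066 with RLE factors, −0.0036 with at least 10 counts in every sample and −0.0017 with only the 2 groups compared. Aen in whole organoids (−0.02) was 0.32 with the first library alone and 0.016 without the second library of VIP-treated mouse 3. With 1 mouse left out, log2 fold changes that turned ranged as follows. Irradiation gave −0.17 to 0.42 for Pidd1 without VIP and −0.21 to 0.65 for Tnfrsf10b with VIP. VIP in irradiated cells gave −0.070 to 0.024 for Bax, −0.050 to 0.019 for Bbc3, −0.29 to 0.0028 for Fas, −0.11 to 0.11 for Eda2r and −0.025 to 0.032 for Phlda3. VIP in non-irradiated cells gave −0.36 to 0.21 for Tnfrsf10b, −0.71 to 0.21 for Pidd1 and −0.19 to 0.35 for Aen. The interaction gave −0.17 to 0.26 for Fas and −0.53 to 0.13 for Aen. Whole organoids gave −0.032 to 0.34 for Pmaip1, −0.15 to 0.37 for Fas, −0.020 to 0.22 for Eda2r and −0.095 to 0.092 for Aen, and VIP at 72 h in sorted cells −0.068 to 0.19 for Perp. The cause of these changes was not tested. Depth limits the members with few UMIs, above all Pidd1, Tnfrsf10b and Aen, and 7 members could not be tested in sorted cells at 72 h.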
